A study of Mus musculus with 16 samples.

Results

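Regulators of G protein signalling (RGS proteins) and dual-specificity phosphatases were examined as 10 genes, namely Rgs1, Rgs2, Rgs10, Rgs16, Dusp1, Dusp2, Dusp4, Dusp5, Dusp6 and Dusp10. The genes were chosen with earlier results of these data known. Each was found by its symbol and represented by the probe set that the platform annotation gives exactly that symbol. Where there were several, the one with the highest mean was used. This gave 9 genes of the 19531 measured, each with 1 probe set. Rgs10 is not analysed here. The 9 genes were followed in CD4+ T cells from the spleens of male mice aged 6 weeks on 16 Affymetrix arrays, 2 in each of 8 groups. The groups were regulatory T cells (Treg, CD3+ CD4+ GFP+) and conventional T cells (Tconv, CD3+ CD4+ GFP-) from Foxp3-Fusion-GFP mice (fusion) and Foxp3-ires-GFP mice (ires), each on the NOD and the B6 background. NOD mice develop autoimmune diabetes, and B6 stands for the C57BL/6 strain.

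All 8 groups, Tconv included, came from mice that carry a GFP reporter at Foxp3, the gene of the lineage factor of Treg. The fusion allele makes Foxp3 protein with GFP attached, whereas from the ires allele GFP is made as a protein of its own off the shared transcript. Cells were sorted a second time before lysis. Replicates carry the numbers 1 and 2 in the labels, which do not say if they were different mice, pools or repeats of 1 sample. The p-values therefore rest on a spread between arrays that may be technical.

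RGS proteins speed up the hydrolysis of GTP by the alpha subunits of heterotrimeric G proteins and so shorten signals from G protein-coupled receptors, among them the chemokine receptors that guide T cells. Many dual-specificity phosphatases remove phosphate from both the threonine and the tyrosine of activated MAP kinases, which ends signalling through ERK, JNK or p38. In T cells several members of both families are induced by antigen receptor signals and act as feedback inhibitors.

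Values are log2 intensities. Differences are on the log2 scale, given ± SE from 1 linear model fitted across the 16 arrays, and their p-values were adjusted by Benjamini and Hochberg's method over the 12798 tested genes. Genes with an adjusted p below 0.05 count as called. Levels of different genes come from different probes and were not set against each other. Array medians ran from 86.7 to 99.0 in linear intensity. The small number of arrays limits how precisely each difference is known. Foxp3, which the sort selects on, lay between 11.37 and 12.16 on the Treg arrays and between 7.01 and 8.18 on the Tconv arrays. Il2ra, the alpha chain of the interleukin-2 receptor, lay between 10.78 and 11.37 on Treg arrays and between 5.27 and 6.94 on Tconv arrays. Of 8 general T cell markers 1 was higher and 5 were lower in Treg, and their summed intensity was 19710 to 25210 on Treg arrays and 22460 to 26270 on Tconv arrays.

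Among markers of other cells, Ms4a1 and Cd79a of B cells, Csf1r, Cd14 and Adgre1 of myeloid cells, Itgax of dendritic cells and Ncr1 of NK cells lay below the intensity required for testing. Others on the same lists passed it. Their means in Treg and Tconv were 7.42 and 6.73 for Cd79b, 7.49 and 7.26 for Cebpb, and 6.48 and 6.45 for Batf3. They were 7.76 and 7.78 for Nkg7, 8.21 and 8.63 for Cd8b1, 8.35 and 5.70 for Gzmb, and 4.23 and 6.58 for Klrd1. Klrd1 was thus lower in Treg, with a difference of -2.35 ± 0.13. The summed intensity of 10 B and plasma cell markers was 490 to 607 on Treg arrays and 447 to 789 on Tconv arrays. The highest Tconv sum was on a NOD fusion array, whose pair gave 460, and the other Tconv groups reached at most 522. Further sums were as follows. For 11 myeloid markers the sum was 591 to 783 on Treg arrays and 568 to 788 on Tconv arrays. For 7 dendritic cell markers it was 367 to 459 on Treg arrays and 348 to 446 on Tconv arrays. For 10 markers of cytotoxic lymphocytes (CD8 T, gamma-delta T and NK cells) it was 1015 to 1790 on Treg arrays and 1053 to 1402 on Tconv arrays, and for 4 red cell and platelet markers 178 to 241 on Treg arrays and 190 to 240 on Tconv arrays. Of those that could be tested, 1 of 4 B cell markers was higher in Treg, 1 of 5 myeloid markers was higher and 1 lower, 2 of 7 cytotoxic lymphocyte markers were higher and 2 lower, and none of 4 dendritic or 2 red cell and platelet markers was called.

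Treg were set against Tconv over the 4 mouse lines. Of the 9 genes, 5 were higher in Treg (Rgs1, Rgs16, Dusp1, Dusp4 and Dusp5), 3 were lower (Rgs2, Dusp6 and Dusp10), and Dusp2 was not called. The 8 calls compare with 28.6% of all tested genes called, 16.7% higher and 11.9% lower. Because the members were chosen with earlier results of these data known, such shares describe the set and are no test of enrichment. That split depended on the scaling, with 2138 genes higher and 1526 lower as deposited, 1719 and 1722 with array medians subtracted (centring), and 2106 and 2203 after quantile normalization. The median difference of the 9 genes was 0.84, against -0.01 over all tested genes. In 4 of the 9 genes (Rgs1, Rgs16, Dusp1 and Dusp4) no Treg array overlapped a Tconv array, as was the case for 8.28% of all genes. In bulk samples a different share of cells that express a gene and a different amount of RNA per cell cannot be told apart. The 8 calls held their direction and their side of the threshold under all 23 alternatives run.

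**Figure D1:**
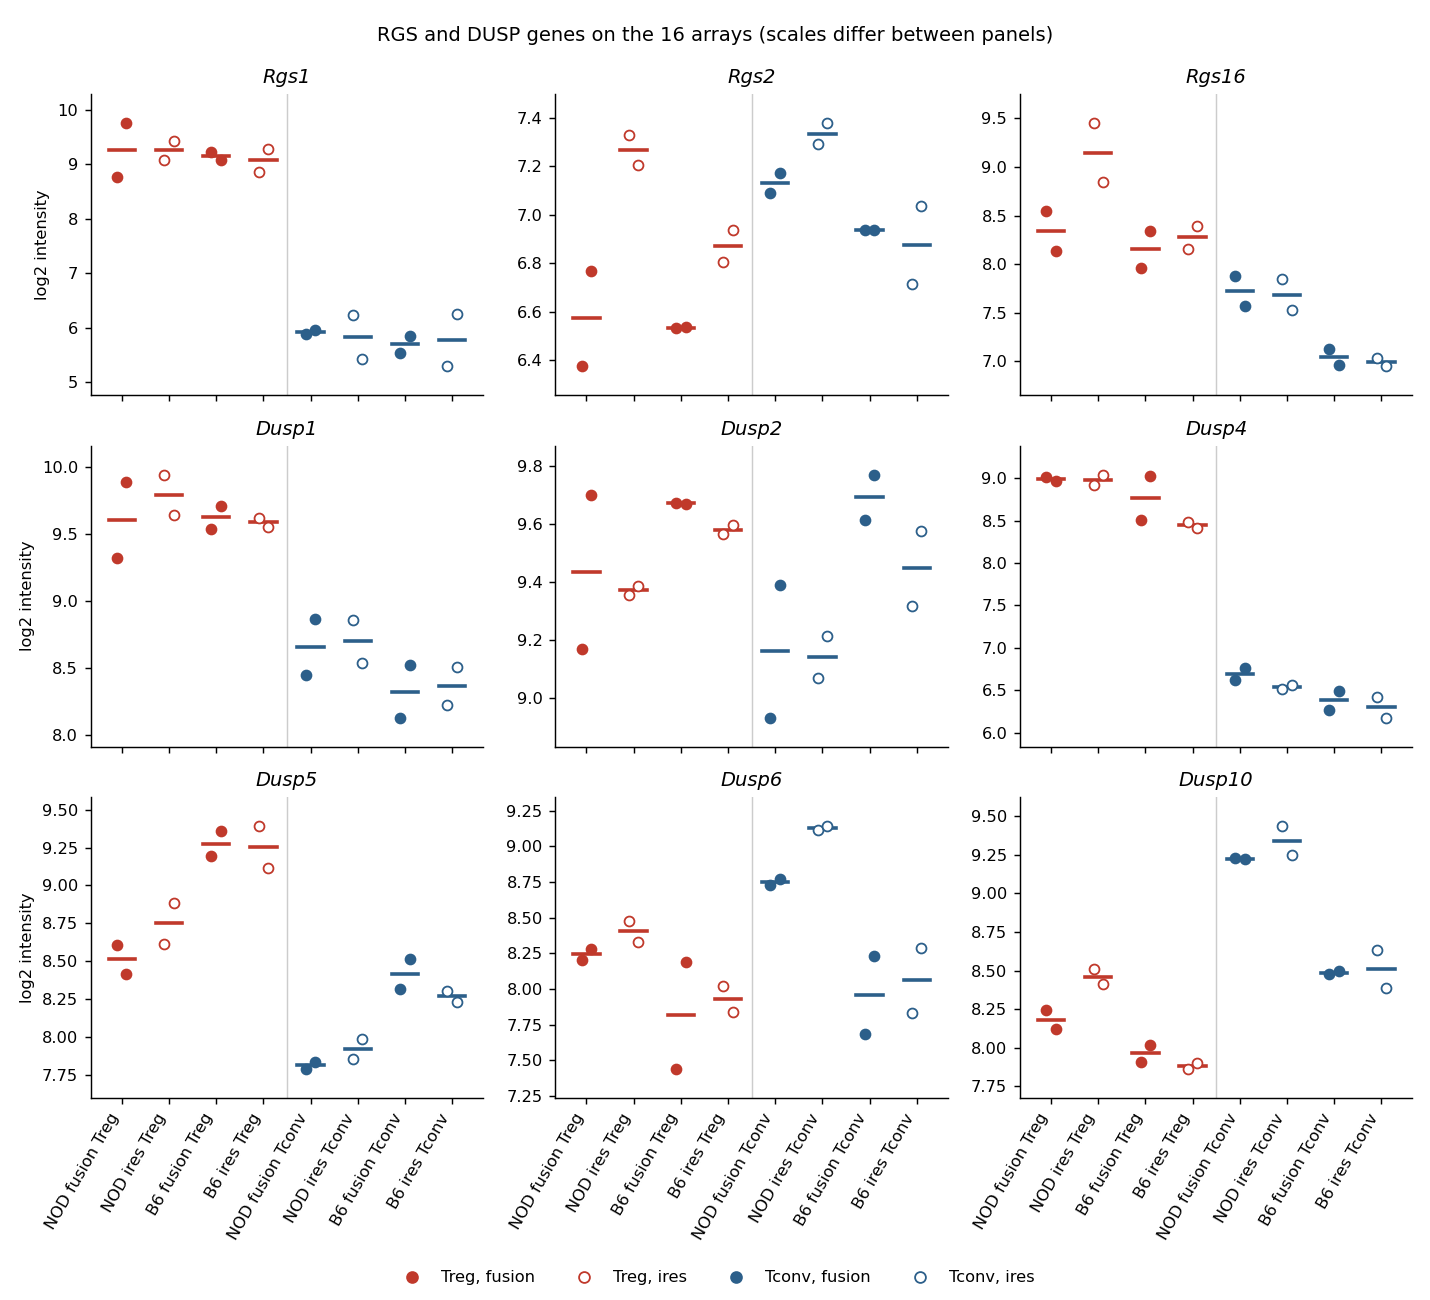
Log2 intensity of the 9 genes on each of the 16 arrays, 1 panel per gene, with Treg groups in red left of the line and Tconv groups in blue right of it. Filled circles are fusion mice and open circles ires mice, each point is an array and each bar a group mean, and the vertical scales differ between panels. Rgs1, Rgs16, Dusp1 and Dusp4 show no overlap between Treg and Tconv, whereas for Dusp2 the Treg arrays, between 9.17 and 9.70, lie within the range of the Tconv arrays, between 8.93 and 9.77.

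Rgs1 (probe set 10358408) encodes a GTPase-activating protein for G alpha i and G alpha q that limits chemokine receptor signalling in lymphocytes. It measured 8.76 and 9.75 in NOD fusion Treg, 9.08 and 9.43 in NOD ires Treg, 9.22 and 9.07 in B6 fusion Treg and 8.85 and 9.28 in B6 ires Treg. The Tconv arrays gave 5.89 and 5.95 in NOD fusion mice, 6.23 and 5.42 in NOD ires mice, 5.54 and 5.85 in B6 fusion mice and 5.30 and 6.25 in B6 ires mice. Every Treg array was thus above every Tconv array. Within each cell type the lines overlapped, except that NOD fusion Tconv lay above B6 fusion Tconv. The difference was 3.38 ± 0.15 (adjusted p = 4.08e-12). In 6 of the 8 Tconv arrays Rgs1 lay below log2 6.06, the level a gene had to exceed on at least 2 arrays to be tested, so the difference is given without a fold. The pair of NOD fusion Treg arrays differed by 0.99, the widest gap between arrays of a group among the 9 genes.

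Rgs16 (probe set 10350733) also encodes an inhibitor of G alpha i and G alpha q signalling, and its transcript is induced by T cell activation. Its levels were 8.55 and 8.13 in NOD fusion Treg, 9.45 and 8.85 in NOD ires Treg, 7.96 and 8.34 in B6 fusion Treg and 8.16 and 8.40 in B6 ires Treg. In Tconv they were 7.87 and 7.57 in NOD fusion mice, 7.84 and 7.53 in NOD ires mice, 7.13 and 6.96 in B6 fusion mice and 7.03 and 6.95 in B6 ires mice. NOD ires Treg stood highest and did not overlap the next group, NOD fusion Treg, which in turn overlapped both B6 Treg groups. Among Tconv, both NOD groups lay above both B6 groups. Treg exceeded Tconv by 1.12 ± 0.10 (adjusted p = 3.19e-08, 2.17-fold).

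Rgs2 (probe set 10358389), whose protein acts mainly on G alpha q, went the other way. Its Treg levels were 6.38 and 6.77 in NOD fusion mice, 7.33 and 7.21 in NOD ires mice, 6.53 and 6.53 in B6 fusion mice and 6.80 and 6.94 in B6 ires mice. Tconv gave 7.09 and 7.17 in NOD fusion mice, 7.29 and 7.38 in NOD ires mice, 6.94 and 6.94 in B6 fusion mice and 6.71 and 7.04 in B6 ires mice. The groups overlapped, with a median of 6.79 over Treg and 7.06 over Tconv, and Rgs2 was lower in Treg by a mean difference of -0.26 ± 0.07 (adjusted p = 0.00736). Line by line, Treg minus Tconv was -0.56 in NOD fusion mice and -0.40 in B6 fusion mice, against -0.07 in NOD ires mice and -0.0049 in B6 ires mice, each ± 0.14. Rgs1 and Rgs2 lie near each other on chromosome 1, with 5 annotated genes between them, and their differences had opposite signs.

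Of 8 other tested RGS genes, 4 were called between Treg and Tconv. Rgs9 (0.72 ± 0.07) and Rgs3 (0.50 ± 0.07) were higher in Treg, and Rgs11 (-0.40 ± 0.09) and Rgs19 (-0.21 ± 0.06) were lower, with a median over the 8 of 0.01. Among 17 tested subunits of heterotrimeric G proteins, the substrates and partners of RGS proteins, 10 were higher in Treg and none was lower (median 0.21). The largest differences were those of Gnaq, which encodes G alpha q (1.31 ± 0.08), and Gna15, a G alpha of the same class (1.18 ± 0.10), followed by Gng12 (0.68 ± 0.07) and Gnb4 (0.48 ± 0.07). Centring each array on its median left 9 subunits higher and none lower, and quantile normalization 10 and none.

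Among 23 G protein-coupled receptors of lymphocyte migration, 13 were higher in Treg and 7 lower (median 0.77), or 12 and 7 after centring each array. Gpr83 (3.12 ± 0.12) and the chemokine receptors Ccr8 (3.01 ± 0.08), Ccr4 (2.46 ± 0.10) and Ccr6 (2.29 ± 0.09) were highest above Tconv. Cxcr6 (-1.52 ± 0.15) and the lymph node homing receptor Ccr7 (-1.06 ± 0.07) were lowest below Tconv. Several of these receptors are known Treg genes.

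The phosphatase genes are taken in turn by the kind of enzyme they encode. Dusp1, Dusp4 and Dusp5 encode nuclear, inducible MAP kinase phosphatases and were higher in Treg. Dusp6, which encodes a cytoplasmic phosphatase for ERK, and Dusp10, which encodes one that acts mainly on JNK and p38, were lower in Treg. Dusp2, another nuclear inducible phosphatase, was not called. The promoters of 7 of the 9 genes (Rgs2, Rgs16, Dusp1, Dusp2, Dusp5, Dusp6 and Dusp10) were read from RefSeq, assembly GRCm38.p6, as the 250 bases before the annotated start. They were searched on both strands for the cyclic AMP response element (TGACGTCA), the AP-1 site (TGANTCA), a forkhead site (TGTTTAC), an ETS site (CCGGAAGT) and the CArG box of serum response factor. Matches were found in 2 of the 7, and these are shown because both genes were higher in Treg. Capitals mark the matches.
Dusp1 promoter, chr17:26508473-26508722, minus strand: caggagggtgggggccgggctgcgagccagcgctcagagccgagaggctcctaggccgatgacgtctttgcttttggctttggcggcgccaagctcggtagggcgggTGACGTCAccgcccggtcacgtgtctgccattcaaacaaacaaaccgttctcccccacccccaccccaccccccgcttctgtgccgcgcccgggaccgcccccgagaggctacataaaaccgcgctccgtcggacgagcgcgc
Dusp5 promoter, chr19:53528895-53529144, plus strand: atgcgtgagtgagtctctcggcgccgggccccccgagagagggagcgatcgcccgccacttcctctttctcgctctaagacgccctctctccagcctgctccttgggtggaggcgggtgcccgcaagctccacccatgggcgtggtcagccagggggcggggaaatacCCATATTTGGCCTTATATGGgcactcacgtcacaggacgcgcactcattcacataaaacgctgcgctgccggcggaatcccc
Dusp1 holds 1 cyclic AMP response element whose first base is 143 bases before the start, and 1.55% of 32851 mouse promoters of the same length hold that motif. Dusp5 holds 2 CArG boxes that follow each other without a gap, beginning 82 and 72 bases before the start, and a CArG box occurs in 1.47% of promoters. The AP-1, forkhead and ETS letters occur in 6.75%, 3.17% and 2.88% of promoters and were not found in these 7 windows. A match describes the letters only, and binding was not measured.

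Dusp4 (probe set 10571312), which encodes a nuclear phosphatase for ERK and JNK, had the smallest SE relative to its difference among the 9 genes. Its Treg levels were 9.02 and 8.96 in NOD fusion mice, 8.92 and 9.04 in NOD ires mice, 8.51 and 9.02 in B6 fusion mice and 8.48 and 8.41 in B6 ires mice. Tconv levels were 6.62 and 6.76 in NOD fusion mice, 6.51 and 6.56 in NOD ires mice, 6.27 and 6.49 in B6 fusion mice and 6.42 and 6.18 in B6 ires mice. The lowest Treg array, at 8.41, was well above the highest Tconv array, at 6.76. Dusp4 was higher in Treg by 2.32 ± 0.07 (adjusted p = 2.00e-14), or 4.99-fold.

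Dusp1 (probe set 10449284), whose product inactivates p38, JNK and ERK and whose promoter is shown above, measured 9.32 and 9.89 in NOD fusion Treg, 9.94 and 9.64 in NOD ires Treg, 9.54 and 9.71 in B6 fusion Treg and 9.62 and 9.56 in B6 ires Treg. Tconv levels were 8.45 and 8.86 in NOD fusion mice, 8.86 and 8.54 in NOD ires mice, 8.13 and 8.52 in B6 fusion mice and 8.22 and 8.50 in B6 ires mice. No Treg array overlapped a Tconv array. Among Treg, NOD ires mice lay above B6 ires mice without overlap, and the other pairs of lines overlapped. The difference was 1.14 ± 0.10 (adjusted p = 2.10e-08, 2.21-fold).

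Dusp5 (probe set 10463945), with the paired CArG boxes, encodes a nuclear phosphatase specific for ERK. Its Treg levels were 8.61 and 8.42 in NOD fusion mice, 8.62 and 8.88 in NOD ires mice, 9.19 and 9.36 in B6 fusion mice and 9.39 and 9.12 in B6 ires mice. Tconv levels were 7.79 and 7.84 in NOD fusion mice, 7.85 and 7.99 in NOD ires mice, 8.32 and 8.51 in B6 fusion mice and 8.30 and 8.23 in B6 ires mice. Within each background all Treg arrays exceeded all Tconv arrays, except that across backgrounds the lowest NOD Treg array, at 8.42, overlapped the highest B6 Tconv array, at 8.51. The difference was 0.84 ± 0.07 (adjusted p = 9.42e-09, 1.80-fold).

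Dusp2 (probe set 10475782) encodes a phosphatase also known as PAC1 that is induced in activated lymphocytes. Over the Treg arrays it lay between 9.17 and 9.70, with a median of 9.58, and over the Tconv arrays between 8.93 and 9.77, with a median of 9.35. The arrays overlapped, and the difference of 0.15 ± 0.08 was not called (adjusted p = 0.191). It was called without the first NOD fusion Treg array (0.22, adjusted p = 0.0397), the lowest Treg array for this gene.

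Dusp10 (probe set 10352448) was lower in Treg in each line. Its Treg levels were 8.24 and 8.12 in NOD fusion mice, 8.51 and 8.41 in NOD ires mice, 7.91 and 8.02 in B6 fusion mice and 7.86 and 7.90 in B6 ires mice. Tconv levels were 9.23 and 9.22 in NOD fusion mice, 9.43 and 9.25 in NOD ires mice, 8.48 and 8.49 in B6 fusion mice and 8.63 and 8.39 in B6 ires mice. NOD ires Treg overlapped the B6 Tconv groups, and within a background Treg and Tconv did not overlap. The difference was -0.77 ± 0.06 (adjusted p = 6.38e-09, 1.70-fold lower in Treg).

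Dusp6 (probe set 10366043) measured 8.20 and 8.28 in NOD fusion Treg, 8.47 and 8.33 in NOD ires Treg, 7.44 and 8.19 in B6 fusion Treg and 8.02 and 7.84 in B6 ires Treg. Its Tconv levels were 8.73 and 8.77 in NOD fusion mice, 9.11 and 9.14 in NOD ires mice, 7.68 and 8.23 in B6 fusion mice and 7.83 and 8.29 in B6 ires mice. NOD Treg lay below NOD Tconv without overlap, whereas all 4 B6 groups overlapped. The mean difference was -0.38 ± 0.10 (adjusted p = 0.00905). It was -0.51 in NOD fusion mice and -0.72 in NOD ires mice, against -0.14 in B6 fusion mice and -0.13 in B6 ires mice, each ± 0.21.

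**Figure D2:**
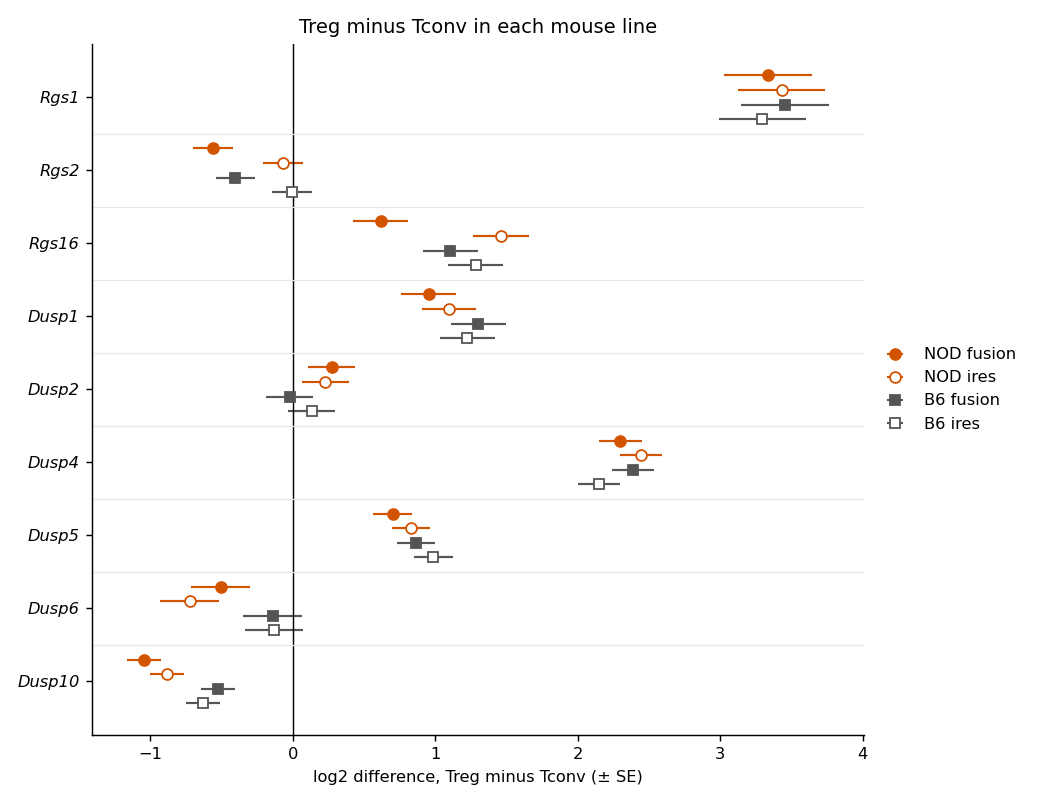
Log2 difference, Treg minus Tconv, of the 9 genes in each of the 4 mouse lines, with points for the estimate and bars for ± SE from the model of all 16 arrays. Orange circles are NOD lines and grey squares B6 lines, filled for fusion and open for ires mice. Rgs1 lies between 3.29 and 3.45 and Dusp4 between 2.15 and 2.44 in the 4 lines, while Dusp6 and Dusp10 lie further below 0 in the NOD lines.

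Of 17 other tested dual-specificity phosphatases, 4 were called between Treg and Tconv, or 23.5%. Ssh1, a phosphatase of the actin regulator cofilin, was higher in Treg (0.76 ± 0.07), as was Dusp16, a JNK phosphatase (0.32 ± 0.06). Dusp7, an ERK phosphatase of the same subfamily as Dusp6, was lower (-0.33 ± 0.06), and so was Dusp28 (-0.20 ± 0.06). The number lower in Treg depended on the scaling, with 6 after quantile normalization and 2 after centring each array.

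Among 24 tested MAP kinases and kinases or exchange factors that activate them, 7 were higher in Treg and 5 lower (median 0.04). Map3k8, an activator of the ERK pathway, had the largest difference (1.51 ± 0.08), followed by Map3k5 (0.51 ± 0.08), Mapk9, which encodes a JNK (0.47 ± 0.06), and the scaffold Ksr1 (0.44 ± 0.07). Of 16 other inhibitors of the ERK pathway, 6 were higher and 3 lower (median 0.10). Examples were Spry1 (0.67 ± 0.08), Ptpn7, a tyrosine phosphatase of ERK and p38 (0.65 ± 0.06), and the adaptor Dok2 (0.51 ± 0.06), whereas Rasal3, a GTPase-activating protein for Ras, was lower (-0.54 ± 0.06).

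Immediate-early genes, which antigen receptor signals induce and which cell isolation can also induce, moved alongside. Of 31 tested, 18 were higher in Treg and 2 lower (median 0.25), or 15 and 4 after centring each array. Gadd45b (1.36), Nr4a1 (1.24), Zfp36l1 (0.97) and Nfkbia (0.83) had the largest differences. The summed intensity of the list was 21660 to 25180 on Treg arrays and 19490 to 21100 on Tconv arrays, without overlap. Their part in the differences of the RGS and DUSP genes was not tested. Between the 2 arrays of a group, the change in the mean of these immediate-early genes was set beside the change in each member over the 8 groups. Pearson's r was 0.866 for Dusp6, 0.679 for Rgs16, 0.475 for Dusp1, 0.195 for Rgs1 and -0.14 for Dusp5. For the other members it was 0.386 (Rgs2), 0.147 (Dusp4), 0.0966 (Dusp10) and -0.0285 (Dusp2). The 2 changes had the same sign in 6 of 8 groups for Dusp6, 4 for Rgs16, 5 for Dusp1, 4 for Rgs1 and 3 for Dusp5. That number was 6 for Rgs2, 5 for Dusp2, 5 for Dusp10 and 3 for Dusp4. Each sign follows the replicate numbers, so r would differ under another numbering and does not rank the genes. These correlations are descriptions over 8 differences, with the members and the immediate-early genes read from the same arrays. Same-numbered Treg and Tconv arrays of a line can deviate together, so the 8 differences may not be independent.

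The fusion allele was set against the ires allele within Treg, a comparison of mice that differ in whether GFP is attached to the Foxp3 protein. Of the 9 genes, Rgs2 alone was called, lower with the fusion allele by -0.52 ± 0.10 (adjusted p = 0.0174, 1.43-fold lower). Over all tested genes 0.609% were called, 0.398% higher and 0.211% lower. The 4 fusion Treg arrays gave Rgs2 levels of 6.38, 6.77, 6.53 and 6.53, all below the 4 ires Treg arrays at 7.33, 7.21, 6.80 and 6.94. Rgs2 was the 1 member without overlap, and 2.15% of all genes had none. Foxp3 itself lay between 11.37 and 11.59 in fusion Treg and between 11.77 and 12.16 in ires Treg, a difference of -0.43 ± 0.16 that was not called (adjusted p = 0.396).

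The Rgs2 call was sensitive to leaving out any of several single arrays. It was lost without the first (adjusted p = 0.0768) or the second (0.0571) B6 fusion Treg array, without the first NOD fusion Treg array (0.103), without the second B6 ires Treg array (0.117) and without the first NOD ires Treg array (0.0932), where the difference stayed between -0.52 and -0.42. In NOD Treg alone Rgs2 differed by -0.70 ± 0.14 (adjusted p = 0.0678), and in B6 Treg alone by -0.34 ± 0.14 (adjusted p = 0.475). The NOD value was called without the second NOD fusion Treg array (-0.89, adjusted p = 0.0338) and without either B6 ires Tconv array (0.0437 each). It was also called with the replicate number as a block (adjusted p = 0.0311) and with the stricter filter on low values (adjusted p = 0.0475). In Tconv the allele difference of Rgs2 was -0.07 ± 0.10 (adjusted p = 0.999), and the allele effect in Treg less the one in Tconv was -0.44 ± 0.14 (adjusted p = 0.565), so the effects were not shown to differ between cell types.

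Rgs2 lies on chromosome 1, and 3 tested genes on either side of it were examined for a difference between the fusion and ires lines. Between Rgs2 and these genes lay 2 to 5 annotated genes, except for Ptgs2 (33) and Odr4 (40). Glrx2 (0.08), Ro60 (0.03) and Uchl5 (0.12) on one side and Rgs1 (0.04), Ptgs2 (-0.12) and Odr4 (-0.01) on the other were not called, with adjusted p between 0.951 and 0.999.

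Rgs16 was the other member with a large allele estimate, -0.47 ± 0.14 in Treg over both backgrounds, and it was not called (adjusted p = 0.203). In NOD Treg it gave 8.55 and 8.13 with the fusion allele against 9.45 and 8.85 with the ires allele, arrays that did not overlap and a difference of -0.81 ± 0.19 (adjusted p = 0.258). Without the second NOD ires Treg array that difference was -1.11 and was called (adjusted p = 0.0469). In B6 Treg the levels were 7.96 and 8.34 with the fusion allele against 8.16 and 8.40 with the ires allele, a difference of -0.12 ± 0.19 (adjusted p = 0.858). The difference between the backgrounds, NOD minus B6, was -0.69 ± 0.27 and was not called (adjusted p = 0.763).

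The other 7 genes had allele differences in Treg between -0.14 (Dusp6) and 0.17 (Dusp4), with adjusted p between 0.852 and 0.999. With limma, none of the 9 was called in B6 Treg alone (0.344% of all genes), in NOD Treg alone (0.102%), in the difference between backgrounds (0.0391%), in Tconv (0.0234%) or in the allele effect of Treg minus that of Tconv (0.0469%). At an unadjusted p under 0.05, Rgs2 and Dusp4 (0.32 ± 0.15) passed in B6 Treg, and Rgs2, Rgs16 and Dusp10 (-0.28 ± 0.12) in NOD Treg. Rgs16 and Dusp10 (-0.36 ± 0.17) passed in the difference between backgrounds. Rgs2 and Rgs16 passed in the allele effect of Treg minus that of Tconv, and no member passed in Tconv. The share of all tested genes that passed unadjusted is not given here, so these passes cannot be set against it.

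**Figure D3:**
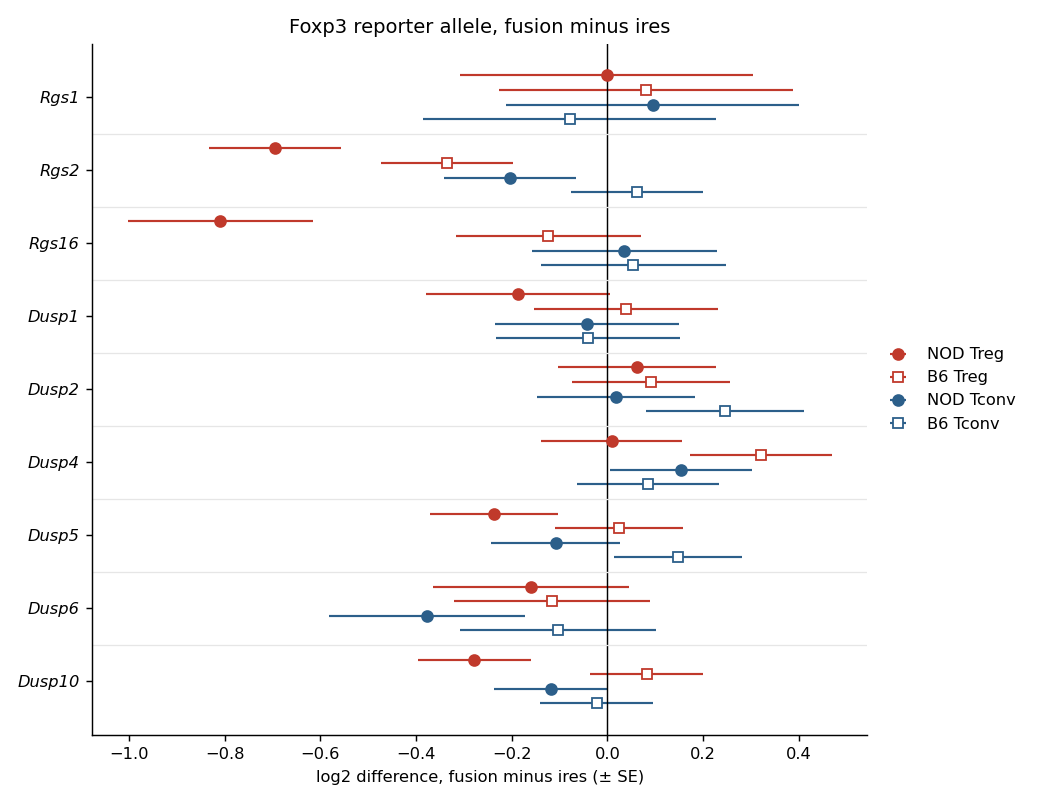
Log2 difference, fusion minus ires, of the 9 genes in Treg (red) and Tconv (blue) on the NOD background (filled circles) and the B6 background (open squares), with bars for ± SE from the model of all 16 arrays. Rgs2 and Rgs16 lie furthest below 0 in NOD Treg, at -0.70 and -0.81, and the Tconv points lie between -0.38 and 0.25.

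Over both backgrounds in Treg, no other RGS gene, other dual-specificity phosphatase, G protein subunit, MAP kinase list gene, ERK pathway inhibitor or immediate-early gene was called. Of the 23 receptors, Ccr2 (0.88 ± 0.20) and Ccr9 (0.51 ± 0.11) were higher with the fusion allele. The number of genes called higher and lower over the whole table, 51 and 27, became 48 and 13 when each array was centred on its median. In B6 Treg alone, the G protein subunit Gnb4 (0.82 ± 0.14) and the receptors Ccr9 (1.07 ± 0.16) and Ccr8 (0.82 ± 0.17) were higher with the fusion allele.

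Summed marker levels also differed between the alleles. In NOD Treg, where Rgs2 and Rgs16 had their lowest allele estimates, the summed intensity of the immediate-early genes was 22240 to 22650 with the fusion allele and 23730 to 24470 with the ires allele. That of the T cell markers was 22930 to 23230 with the fusion allele and 24390 to 25210 with the ires allele. Neither sum overlapped between the alleles, whereas both overlapped in B6 Treg. With 2 arrays per group, sums can part without any allele effect, and other sums did so too. In NOD Treg the cytotoxic lymphocyte sum was 1015 to 1102 with fusion and 1105 to 1191 with ires. In B6 Treg the B and plasma cell sum was 537 to 557 with fusion and 595 to 607 with ires. The myeloid sum overlapped in neither background. The dendritic cell sum and the red cell and platelet sum overlapped in both. The 5 Treg markers summed to 14680 to 14890 in B6 fusion Treg and 12970 to 13310 in B6 ires Treg, without overlap, and to 11270 to 12140 in NOD fusion Treg and 10640 to 12620 in NOD ires Treg, which overlapped. The part of these markers in the allele differences was not tested.

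NOD was set against B6 to ask how the genetic background of an autoimmune strain relates to these regulators. In Treg 5 of the 9 genes were called, with Rgs16, Dusp4, Dusp6 and Dusp10 higher in NOD and Dusp5 lower. Over all genes 21.0% were called, 11.2% higher and 9.82% lower. In Tconv 6 of the 9 were called, with Rgs2, Rgs16, Dusp6 and Dusp10 higher in NOD and Dusp2 and Dusp5 lower, against 15.9% of all genes, 9.39% higher and 6.49% lower. The arrays of NOD and B6 did not overlap for 3 members in Treg (Dusp5, Dusp6 and Dusp10; 20.7% of all genes) and for 6 in Tconv (Rgs2, Rgs16, Dusp4, Dusp5, Dusp6 and Dusp10; 24.7%).

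The direction of calls over the table depended on the scaling. In Treg 1433 genes were higher and 1257 lower in NOD, and 1650 and 753 after centring each array on its median. In Tconv 1202 were higher and 831 lower, and 1934 and 368 after centring. Among the called members, no difference changed sign under any alternative. Sequence differences between the strains at the arrays' probes were not examined.

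Dusp10 had the smallest adjusted p of the 9 genes between the strains in Tconv. Its 4 NOD Tconv arrays lay between 9.22 and 9.43, with a median of 9.24, and its 4 B6 Tconv arrays between 8.39 and 8.63, with a median of 8.49. NOD exceeded B6 by 0.78 ± 0.08 in Tconv (adjusted p = 4.13e-06, 1.72-fold). In Treg the NOD arrays lay between 8.12 and 8.51 and the B6 arrays between 7.86 and 8.02, a difference of 0.40 ± 0.08 (adjusted p = 0.00272). Both calls held in all 24 alternatives. The strain difference in Treg minus that in Tconv was -0.39 ± 0.12 (limma, adjusted p = 0.196) and did not pass the correction.

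Dusp6 had the largest strain difference of the 9 genes in Tconv. NOD Tconv arrays lay between 8.73 and 9.14 and B6 Tconv arrays between 7.68 and 8.29, a difference of 0.93 ± 0.15 (adjusted p = 3.17e-04, 1.90-fold) that was called in all 24 alternatives. In Treg the NOD arrays, between 8.20 and 8.47, lay just above the B6 arrays, between 7.44 and 8.19, with a difference of 0.45 ± 0.15 (adjusted p = 0.0354). That call was lost without any 1 of 6 arrays. The difference was 0.26 (adjusted p = 0.214) without the first B6 fusion Treg array, which held the lowest Dusp6 level of all 16 arrays. Without the second B6 ires Treg array the adjusted p was 0.117, without the first and second NOD fusion Treg arrays 0.0539 and 0.0908, and without the first and second NOD ires Treg arrays 0.0970 and 0.0574. It was also lost when no filter on low values was used (adjusted p = 0.0509). The strain difference in Treg minus that in Tconv was -0.48 ± 0.21 (adjusted p = 0.429).

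Dusp5 ran opposite to Dusp6 and Dusp10. Its NOD Treg arrays lay between 8.42 and 8.88 and its B6 Treg arrays between 9.12 and 9.39, a difference of -0.63 ± 0.10 (adjusted p = 1.35e-04, 1.55-fold lower in NOD). In Tconv the NOD arrays lay between 7.79 and 7.99 and the B6 arrays between 8.23 and 8.51, a difference of -0.48 ± 0.10 (adjusted p = 0.00293). Both calls held in all 24 alternatives. Ordered by level, both B6 Treg groups came first, then NOD Treg, B6 Tconv and NOD Tconv, where NOD fusion Treg and B6 fusion Tconv overlapped.

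Rgs16 was higher in NOD in both cell types. In Tconv the NOD arrays lay between 7.53 and 7.87 and the B6 arrays between 6.95 and 7.13, a difference of 0.69 ± 0.14 (adjusted p = 0.00286) that was called in all 24 alternatives. In Treg the NOD arrays lay between 8.13 and 9.45 and the B6 arrays between 7.96 and 8.40, which overlap, and the difference was 0.53 ± 0.14 (adjusted p = 0.0109). The Treg call was lost without the first B6 fusion Treg array (0.43, adjusted p = 0.0768) and without the first NOD ires Treg array (0.38, adjusted p = 0.0648). Rgs2 was higher in NOD Tconv by 0.33 ± 0.10 (adjusted p = 0.0308), with arrays between 7.09 and 7.38 in NOD and between 6.71 and 7.04 in B6. That call was lost without the first (adjusted p = 0.0913) or second (0.0631) B6 fusion Tconv array, the second NOD fusion Tconv array (0.108), the first B6 ires Tconv array (0.146), or the first (0.0704) or second (0.0663) NOD ires Tconv array. In Treg the difference of Rgs2 was 0.22 ± 0.10 (adjusted p = 0.117), and it was called without the first NOD fusion Treg array (0.32, adjusted p = 0.0347).

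Dusp4 was higher in NOD Treg by 0.38 ± 0.10 (adjusted p = 0.0164), where NOD arrays lay between 8.92 and 9.04 and B6 arrays between 8.41 and 9.02. The call was lost without the first B6 fusion Treg array (0.25, adjusted p = 0.0915), the second B6 ires Treg array (0.0595) or the second NOD ires Treg array (0.0606). In Tconv, Dusp4 differed by 0.28 ± 0.10 (adjusted p = 0.0783) and was called after centring each array (adjusted p = 0.0368), after quantile normalization (0.0200) and without either B6 fusion Treg array (0.0353 each). Dusp2 was lower in NOD Tconv by -0.42 ± 0.12 (adjusted p = 0.0241), with NOD arrays between 8.93 and 9.39 and B6 arrays between 9.32 and 9.77. This call was lost after centring (-0.34, adjusted p = 0.0706) and without the second B6 fusion Tconv array (0.0661), the first NOD fusion Tconv array (0.0891), the second B6 ires Tconv array (0.0617) or the first NOD ires Tconv array (0.0934). In Treg the difference of Dusp2 was -0.22 ± 0.12 (adjusted p = 0.176), and it was called without the second NOD fusion Treg array (-0.36, adjusted p = 0.0436).

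Rgs1 and Dusp1 were called in neither cell type. Rgs1 differed by 0.15 ± 0.22 in Treg (adjusted p = 0.645) and by 0.14 ± 0.22 in Tconv (adjusted p = 0.662). Dusp1 differed by 0.09 ± 0.14 in Treg (adjusted p = 0.638) and by 0.33 ± 0.14 in Tconv (adjusted p = 0.0960). None of the 9 genes was called for a strain effect that differed between Treg and Tconv, a limma test that called 0.820% of all genes. At an unadjusted p under 0.05 that test passed Dusp6 and Dusp10, and the share of all genes that passed unadjusted is not given here. Its calls over the table, 32 higher and 73 lower in Treg, became 61 and 86 after quantile normalization.

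**Figure D4:**
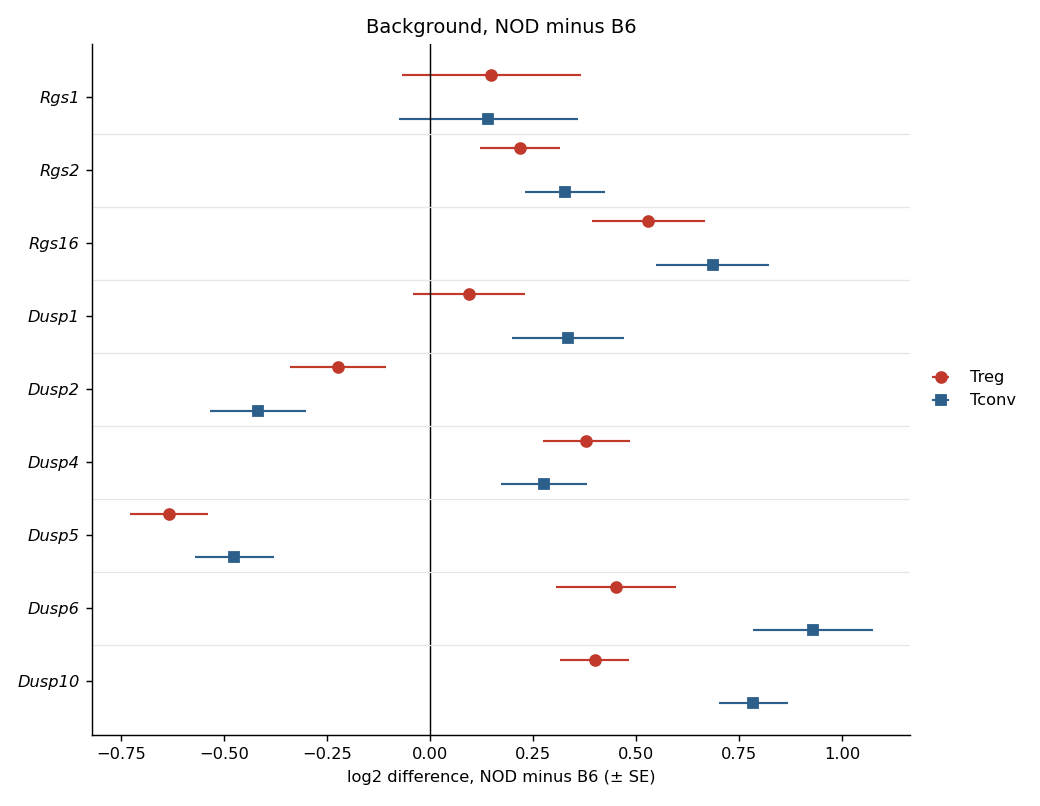
Log2 difference, NOD minus B6, of the 9 genes in Treg (red circles) and Tconv (blue squares), with bars for ± SE from the model of all 16 arrays. Dusp6 and Dusp10 lie further above 0 in Tconv than in Treg, at 0.93 and 0.78 against 0.45 and 0.40, and Dusp5 lies below 0 in both.

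Treg markers moved with the strain in both cell types. In Treg 2 of 5 were lower in NOD, Lrrc32 (-1.04 ± 0.12) and Ctla4 (-0.63 ± 0.17), and none was higher. Their summed intensity was 10640 to 12620 on NOD Treg arrays and 12970 to 14890 on B6 Treg arrays, without overlap. Of a longer list of 20 genes high in Treg, 2 were higher and 9 lower in NOD Treg, and 7 were higher and 2 lower in NOD Tconv. Foxp3 was higher in NOD Tconv by 0.50 ± 0.16 (adjusted p = 0.0391) and Il2ra by 0.85 ± 0.21 (adjusted p = 0.0143), and 3 of 5 Treg markers were called higher there and none lower. The summed intensity of the 5 markers was 644 and 996 on the NOD fusion Tconv arrays and 579 and 704 on the NOD ires Tconv arrays. It was 518 to 647 on B6 Tconv arrays, against 10640 or more on every Treg array. The summed intensity of the 8 general T cell markers was 24400 to 26270 on NOD Tconv arrays and 22460 to 24020 on B6 Tconv arrays, without overlap, and 22930 to 25210 on NOD Treg arrays and 19710 to 22960 on B6 Treg arrays. Of the members higher in NOD Tconv, Rgs16 was higher in Treg than in Tconv, whereas Rgs2, Dusp6 and Dusp10 were lower in Treg. The part of the Treg and T cell markers in these differences was not tested. In Treg the summed intensity of the 11 myeloid markers was 591 to 678 on NOD arrays and 747 to 783 on B6 arrays, and that of the 10 cytotoxic lymphocyte markers was 1015 to 1191 on NOD arrays and 1251 to 1790 on B6 arrays. Their part was not tested either.

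Related lists were read in the same comparison. Of 8 other RGS genes, Rgs11 was called, higher in NOD Treg (0.49 ± 0.12) and in NOD Tconv (0.42 ± 0.12). Of 17 other dual-specificity phosphatases, Ssh1 was higher in NOD Treg (0.35 ± 0.10) and NOD Tconv (0.53 ± 0.10), Dusp8 was lower in NOD Treg (-0.35 ± 0.11), and Dusp9, Dusp12, Dusp14 and Dusp16 were lower in NOD Tconv (-0.32 to -0.29). After centring each array none of the 17 was called lower in either cell type. Among the 17 G protein subunits 2 were higher and 2 lower in NOD Treg, and 3 were higher and none lower in NOD Tconv. Gnb4 was higher in NOD Treg (0.78 ± 0.10) and NOD Tconv (0.61 ± 0.10), as was Gnaq (0.36 ± 0.12 and 0.50 ± 0.12). Gna15 (-0.48 ± 0.15) and Gng5 (-0.37 ± 0.13) were lower in NOD Treg, and Gng10 was higher in NOD Tconv (0.30 ± 0.09). After centring, 1 subunit was lower in NOD Treg. Of the 24 MAP kinase list genes 5 were higher and 1 lower in NOD Treg, and 3 were higher and none lower in NOD Tconv. Of the 16 ERK pathway inhibitors none was called in Treg by limma, and in NOD Tconv Dok1 was higher while Spry4 and Dok2 were lower. After centring, 2 inhibitors were higher and none lower in NOD Tconv. Of the 23 receptors 3 were higher and 3 lower in NOD Treg, and 3 were higher and 1 lower in NOD Tconv. Immediate-early genes were lower in NOD in 5 of 31 cases in Treg and in 8 of 31 in Tconv, with none higher, among them Nr4a1 in Tconv (-0.48 ± 0.11) and Klf4 in Treg (-0.48 ± 0.12). After centring, 4 were lower and none higher in Treg, and 2 were lower and 1 higher in Tconv. The list's summed intensity was 22240 to 24470 in NOD Treg and 21660 to 25180 in B6 Treg, and 19670 to 20560 in NOD Tconv and 19490 to 21100 in B6 Tconv, so the strains overlapped in both cell types.

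The genes whose levels followed each member most closely over the 16 arrays were named by the highest Pearson's r among all tested genes, as a description. For genes with a wide gap between Treg and Tconv, r over all arrays is set largely by that gap. For this reason r within each cell type (8 arrays) is given beside it. Each cell type still mixes NOD and B6 arrays, so a gap between the strains can enter r there. In Tconv, for example, Dusp10 lay between 9.22 and 9.43 in NOD and between 8.39 and 8.63 in B6. The part of the strain in these r was not tested. Rgs1 was followed most closely by Nrp1, a surface receptor of thymic Treg, with r = 0.989 over 16 arrays, 0.596 within Treg and 0.760 within Tconv. Dusp4 was followed by Myo1e, a myosin, with 0.990 over all 16, 0.570 within Treg and 0.825 within Tconv. Dusp1 was followed by Atl3 (0.975 over all 16, 0.861 within Treg and 0.846 within Tconv), then by Phtf2 (0.970, 0.418 and 0.884) and Coro2a (0.969, 0.199 and 0.899).

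Rgs16 was followed by Slc14a1, a urea transporter (0.961 over all 16, 0.842 within Treg and 0.962 within Tconv), and by Stat5a, a transcription factor downstream of the interleukin-2 receptor (0.958, 0.915 and 0.842). Dusp10 was followed by Crtam, an activation receptor of T cells (0.979, 0.921 and 0.979). Dusp5 had Cerk (0.967 over all 16, 0.878 within Treg and 0.945 within Tconv) and Prkca, which encodes a protein kinase C (0.956, 0.898 and 0.899). Dusp6 had Atg14 (0.947, 0.826 and 0.980). Among genes not passed over, the maxima over all 16 arrays were lower for Rgs2, with Gnptab (0.870, 0.870 and 0.838), and for Dusp2, with Gimap3 (0.863, 0.820 and 0.860).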

How the data were processed

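Total RNA from sorted spleen CD4+ T cells was hybridized to Affymetrix arrays. Per the submitters' processing notes, the authors used Affymetrix Power Tools and RMA. They deposited linear intensities, with tool versions and genome build not given in the sources used here. Scanner files were not used here, and alternatives to the background correction were therefore not run.

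Intensities were turned into log2 values with no pseudocount. In the platform annotation 21157 of 25108 probe sets have a single symbol, 1341 have several and 2610 have none, which gave 19531 genes (906 with more than 1 probe set, of which the one with the highest mean was kept). A gene entered the tests if 2 or more arrays exceeded log2 6.06, the 40th percentile of all values. This kept 12798 genes, all 9 measured members among them. The 8 group means were estimated together from the 16 arrays in limma 3.58.1 under R 4.3.3 (8 residual and 9.80 prior degrees of freedom). Tests were two-sided, with Benjamini-Hochberg adjustment over all tested genes per contrast. Tables and plots used Python 3.11.15.

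The members, the gene lists and the naming rule (all members, and up to 4 called genes per related list, or more where a sentence says so) were chosen with earlier results of these data known. Same-numbered Treg and Tconv arrays of a line deviated together with correlations of 0.398, 0.239, 0.396 and 0.0803. Not every pair passed 0.1, so the numbers were not taken as pairs. The main fit thus leaves out any deviation that same-numbered arrays share, and the replicate block gives the calls with it. On simulated data with 200 changed genes among 12798, the fit recovered 91% of genes changed by 0.5 (log2) for Treg against Tconv, 74% for fusion against ires in Treg, 47% for fusion against ires in B6 Treg and 72% for NOD against B6 in Treg. Alternatives were no filter, filtering at the 60th percentile instead, subtracting array medians (centring), quantile normalization, trend and robust variances, averaging a gene's probe sets, only the groups compared, replicate blocks and leaving out each array in turn.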

Additional observations from a re-analysis of the deposited data

How the results depend on the processing

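Over the members, 2091 recomputed differences kept their side of the threshold, 28 lost a call, 14 gained one, and no called difference changed sign. Some that were not called did, such as Rgs1 between fusion and ires in Treg (0.04, with alternatives from -0.21 to 0.29). The replicate block called Rgs2 between fusion and ires in NOD Treg (-0.70, adjusted p = 0.0311), which made 1 member called in place of 0, as did the stricter filter (adjusted p = 0.0475), and it called Dusp2 between Treg and Tconv (adjusted p = 0.0364). With the block, genes called rose to 31 in place of 6 for the allele effect in Treg minus Tconv and to 258 in place of 105 for the strain effect in Treg minus Tconv, and it changed no other member's call. A fit of only the groups compared called 168 genes in place of 44 between fusion and ires in B6 Treg, and 2 in place of 13 in NOD Treg. Genes called for the allele effect in NOD minus B6 Treg, 5, were 9 with the stricter filter, 8 with quantile normalization, 9 with trend and robust variances and 8 in the groups compared. Trend and robust variances called 6 genes in place of 3 between fusion and ires in Tconv, and 19 in place of 6 for the allele effect in Treg minus Tconv. Leaving out 1 array gave 30 to 91 genes and 0 to 1 members for fusion against ires in Treg, 11 to 49 genes in B6 Treg, 3 to 15 genes and 0 to 1 members in NOD Treg, 3 to 8 for NOD minus B6, 2 to 12 in Tconv and 2 to 18 for Treg minus Tconv. For NOD against B6 it gave 1597 to 3063 genes and 2 to 5 members in Treg, 841 to 2365 genes and 4 to 7 members in Tconv, and 69 to 141 genes for the difference. For Treg against Tconv it gave 3242 to 3667 genes and 8 to 9 members. The lowest member count in NOD against B6 Treg, 2, came without the first B6 fusion Treg array. The causes of these shifts were not tested. A left-out array leaves its group with 1 array, which is assumed to vary like the other groups.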
